A study of Mus musculus with 6 samples.

Results

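The 45 genes described here encode the serum response factor (SRF), the 6 actins, and proteins that bind, move, bundle or anchor actin filaments. They were found by symbol among the 53465 genes of each count table. Contractile genes were higher in BMP-inhibited than in control cells, and the list was drawn up for that reason. Its values in that comparison are therefore given as a description, without a test. By role the list holds SRF itself, the 6 actins, 10 proteins that lie along the filament, 6 myosin II chains, 4 crosslinkers, 3 linkers of filaments to the membrane, 12 adhesion and LIM-domain proteins, 2 regulators of actin monomers and 1 secreted protein.

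Messenger RNA was sequenced from mouse embryonic stem cells of Royan B20, an established line, grown with LIF on 0.1% gelatin and passaged 7 times in R2i medium. R2i contained 1 µM PD0329501, spelled here as in the labels, and 10 µM SB431542, an inhibitor of TGF-beta receptors; R2i is known as a combination of MEK and TGF-beta receptor inhibition. The 3 BMP-inhibited cultures also received 250 nM noggin, a secreted antagonist of BMP ligands, together with 5 µM dorsomorphin, an inhibitor of BMP type I receptors. The 3 R2i control cultures received neither. The labels call the cultures of a group biological replicates, all of 1 cell line, and give no duration of the inhibitor treatment. Effects of noggin and of dorsomorphin cannot be told apart in this design, and "BMP-inhibited" repeats the label, not a measurement of BMP signalling.

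SRF is a transcription factor that binds a short A- and T-rich DNA element, the CArG box. Its MRTF cofactors bind actin monomers in the cytoplasm and reach the nucleus when monomers are drawn into filaments, while ternary complex factors of the ELK family join SRF to MAP kinase signalling. Genes for actins, calponins, transgelin, vinculin and SRF itself are classic SRF targets, and Acta2, Tagln, Cnn1 and Myl9 are best known from smooth muscle, whereas embryonic stem cells build their filaments mainly from the cytoplasmic actins Actb and Actg1.

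Most of the 45 listed genes were higher in BMP-inhibited cells, with the steepest differences among genes near 0 in controls, such as the muscle-type Acta2 and Myl9 and the secreted Thbs1. Levels are CPM, counts scaled to library size with TMM factors, and a call means an adjusted p under 0.05 in edgeR's quasi-likelihood test over 15951 genes. Of the 45 genes, 42 passed the count filter, and BMP-inhibited cells had 32 of them called higher and 6 called lower. The same test called 64.2% of all genes tested, 32.5% higher and 31.7% lower, and since the list was chosen on this comparison nothing is read from its count. The median log2 fold change (BMP-inhibited over control) of the 42 genes was 0.55, against -0.0031 over all genes tested, and it was also 0.55 with Acta2, which had no control counts, set to its lower bound. The groups did not overlap for 37 of the 42, where 68.6% of all genes tested did not overlap. A call with a difference of at least 2-fold was made for 10 genes in the higher direction (8.01% of all genes) and for 0 in the lower direction (7.46% of all genes). All 45 together took 1.14%, 1.14% and 1.19% of the gene counts in BMP-inhibited libraries, against 0.859%, 0.867% and 0.873% in control libraries.

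Acta1, Actc1 and Actg2 failed the filter and are given as counts. Acta2, Myl9, Fhl2, Cnn1 and Thbs1 make up the 5 genes that passed although fewer than 3 control libraries reached the filter's 0.302 CPM. These 5 had to be higher in BMP-inhibited cells to be tested at all. In bulk RNA, more cells of a type that carries a transcript and more of it per cell cannot be told apart.

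**Figure D1:**
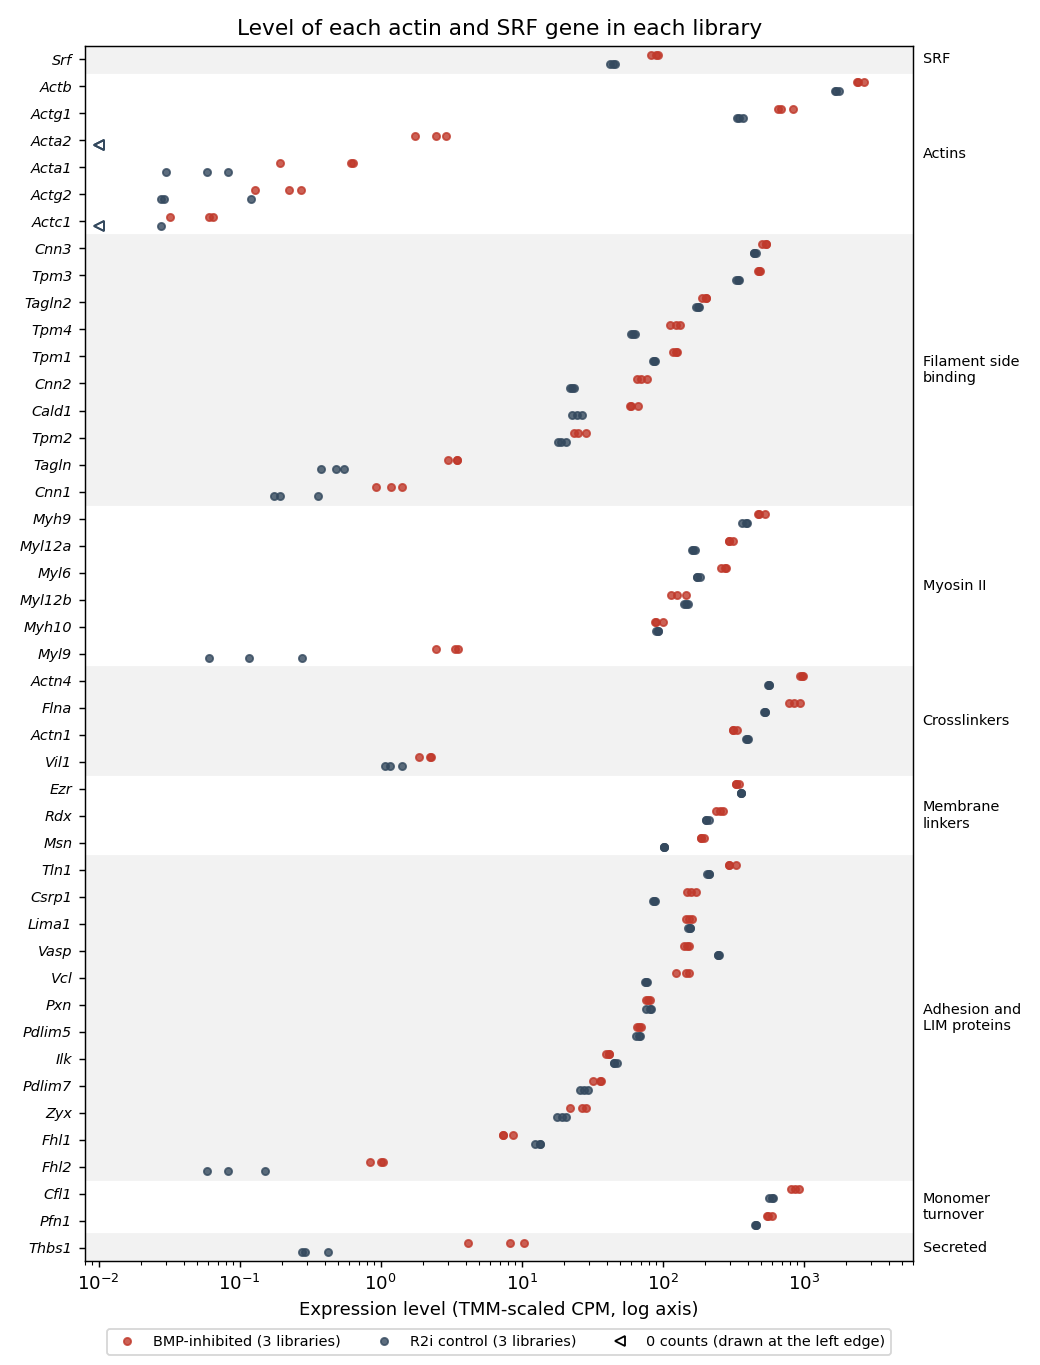
TMM-scaled CPM of each of the 45 genes (rows, by role) in each library on a log axis, with 3 BMP-inhibited libraries (red) above 3 R2i control libraries (dark). Acta2, Tagln, Cnn1, Myl9, Fhl2 and Thbs1 lie at the low end and far apart, and Myl12b, Myh10, Lima1, Pxn and Pdlim5 overlap.

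Gene counts totalled 31474666 to 33774524 in BMP-inhibited and 32720441 to 35322844 in control libraries. The labelled cell type was checked on 6 pluripotency markers (Pou5f1, Sox2, Nanog, Esrrb, Zfp42, Klf4), whose summed level was 3110 to 3293 CPM in BMP-inhibited and 3876 to 4000 CPM in control libraries, with 0 higher and 4 lower. Trophectoderm markers summed to 411 to 499 CPM in BMP-inhibited and 227 to 234 CPM in control libraries, with 8 of 12 called higher and 0 lower. The 8 were Gata3, Gata2, Krt8, Krt18, Krt7, Hand1, Tead4 and Fgfr2. Eomes was not called, nor was Tfap2c, at 137 CPM in BMP-inhibited and 128 CPM in control libraries on average. Elf5 and Cdx2, too low to be tested, had 14 and 43 counts in BMP-inhibited and 11 and 2 counts in control libraries. Fibroblast markers summed to 28.1 to 30.6 CPM in BMP-inhibited and 29.3 to 32.7 CPM in control libraries, with 3 of 12 higher and 1 lower. The collagen gene Col1a1 was higher, with 329 counts over the BMP-inhibited libraries and 133 over the controls, as were Pdgfra with 181 in BMP-inhibited and 90 in control libraries and Postn with 47 in BMP-inhibited and 2 in control libraries. Fbln2, which made up most of the sum, was the marker called lower. Col3a1 and Col1a2, too low to be tested, had 24 and 20 counts over the BMP-inhibited libraries, and 0 and 6 counts over the controls. Lum, Dcn and Prrx1 had 1, 1 and 3 counts over the BMP-inhibited libraries, and 0, 1 and 0 counts over the controls. Smooth muscle markers outside the 45 genes summed to 77.1 to 80.1 CPM in BMP-inhibited and 91.5 to 93.7 CPM in control libraries, with 1 of 6 higher and 1 lower. Lmod1, a leiomodin, was the one higher, with 243 counts in BMP-inhibited and 115 in control libraries, and Smtn, smoothelin, which made up most of the sum, was the one lower, at 54.0 CPM in BMP-inhibited and 68.3 CPM in control libraries on average. Both markers too low to be tested are defining ones: the smooth muscle cofactor Myocd had 1 count in BMP-inhibited and 7 in control libraries, and the smooth muscle myosin Myh11 had 27 counts in BMP-inhibited and 10 in control libraries. Cardiac markers summed to 16.2 to 20.9 CPM in BMP-inhibited and 12.3 to 14.2 CPM in control libraries, with 3 of 8 higher (Myh6, Tnni3 and Nkx2-5), 0 lower and Nppa at 0 counts in both groups. Skeletal muscle markers summed to 159 to 172 CPM in BMP-inhibited and 88.3 to 93.7 CPM in control libraries, with 3 of 8 higher (Mylpf, Myh3 and Tnnc2) and 0 lower. A single gene, Mylpf, made up most of that sum, at 144 CPM in BMP-inhibited and 72.1 CPM in control libraries on average. Ttn and Ckm were not called, Myod1 and Myog had 6 and 25 counts in BMP-inhibited and 1 and 9 counts in control libraries, and Myf5 had 0 counts in both groups. Of the markers called higher, Postn, Nkx2-5, Tnnc2 and Hand1 passed the count filter only through the BMP-inhibited libraries. The marker counts stand beside 32.5% of all genes tested called higher and 31.7% called lower. What part these other cell types had in the values below was not tested.

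Promoters are shown next, because the CArG box is the DNA element through which SRF acts. RefSeq promoters on GRCm38.p6, running from 250 bases before to 50 bases after a gene's start, were matched for 40 of the 45 genes, and Actb, Actg2, Tagln, Pxn and Thbs1 had no entry. A CArG box lay in the promoters of 12 of the 40 genes (30%), as against 488 of 27025 gene symbols in the whole table (1.81%). Counted by promoter, 13 of 49 (26.5%) held a box, against 535 of 32851 promoters in the table (1.63%). The 45 genes were listed partly as SRF targets, so this share describes the list. The pattern searched for is the same on either strand, though the bases of a given box need not be. Windows of 30 bases follow on the gene's strand with the box in capitals.
Srf box 1, chr17:46556225-46556254, minus strand: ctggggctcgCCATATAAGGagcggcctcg
Srf box 2, chr17:46556205-46556234, minus strand: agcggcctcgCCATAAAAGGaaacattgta
Acta1, chr8:123894829-123894858, minus strand: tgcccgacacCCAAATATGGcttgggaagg
Actc1, chr2:114052903-114052932, minus strand: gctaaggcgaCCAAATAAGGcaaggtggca
Actg1, chr11:120348566-120348595, minus strand: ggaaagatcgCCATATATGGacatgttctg
Cnn2, chr10:79988534-79988563, plus strand: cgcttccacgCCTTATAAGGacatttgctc
Myl6 second promoter, chr10:128493040-128493069, minus strand: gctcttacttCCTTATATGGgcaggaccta
Myl9, chr2:156775293-156775322, plus strand: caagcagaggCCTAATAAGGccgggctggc
Vil1, chr1:74409301-74409330, plus strand: ccctatcttcCCTTATATGGtgaaggaagt
Vcl, chr14:20929161-20929190, plus strand: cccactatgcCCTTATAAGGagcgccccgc
Lima1, chr15:99820177-99820206, minus strand: ctcactttgtCCTTATAAGGctatcctgtt
Fhl1 first promoter, chrX:56779571-56779600, plus strand: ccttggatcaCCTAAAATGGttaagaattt
Fhl2 first promoter, chr1:43196838-43196867, minus strand: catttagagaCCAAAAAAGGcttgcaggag
Fhl2 second promoter, chr1:43163973-43164002, minus strand: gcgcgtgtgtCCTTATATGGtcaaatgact

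All 14 boxes lay upstream of the annotated start, between -222 (Vcl) and -26 (the second Fhl2 promoter) as measured to the middle of the box. Srf held boxes at -77 and -57, Myl9 at -156 and Actg1 at -85. Of the 12 genes with a box, 10 were tested; 8 were called higher, Fhl1 lower, and Lima1 was not called, with a median log2 fold change of 0.94. Of the 28 genes with a promoter entry and no box, all were tested; 21 were called higher, 5 lower and 2 not, with a median of 0.42. Both counts stand beside the 32.5% of all genes called higher and 31.7% called lower. Myl9 and Fhl2 with a box, and Acta2 and Cnn1 without, passed the count filter only through the BMP-inhibited libraries. As the list was chosen on this comparison, nothing is read from the 2 medians. With 1 mismatch allowed in the A/T core, 17 of 40 genes (42.5%) and 3050 of 27025 symbols in the table (11.3%) had a match. TATAAA, searched on both strands, was in the promoters of 8 genes (20%), against 4234 symbols in the table (15.7%). GGAATG, the motif of TEAD factors, searched on both strands, was in those of 11 genes (27.5%), against 4481 symbols (16.6%). A match of letters is not a measured binding site, and lack of an exact match in this stretch does not show that SRF has no site. Acta2, counted here without a box, has 2 matches with 1 mismatch in the core.

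**Figure D2:**
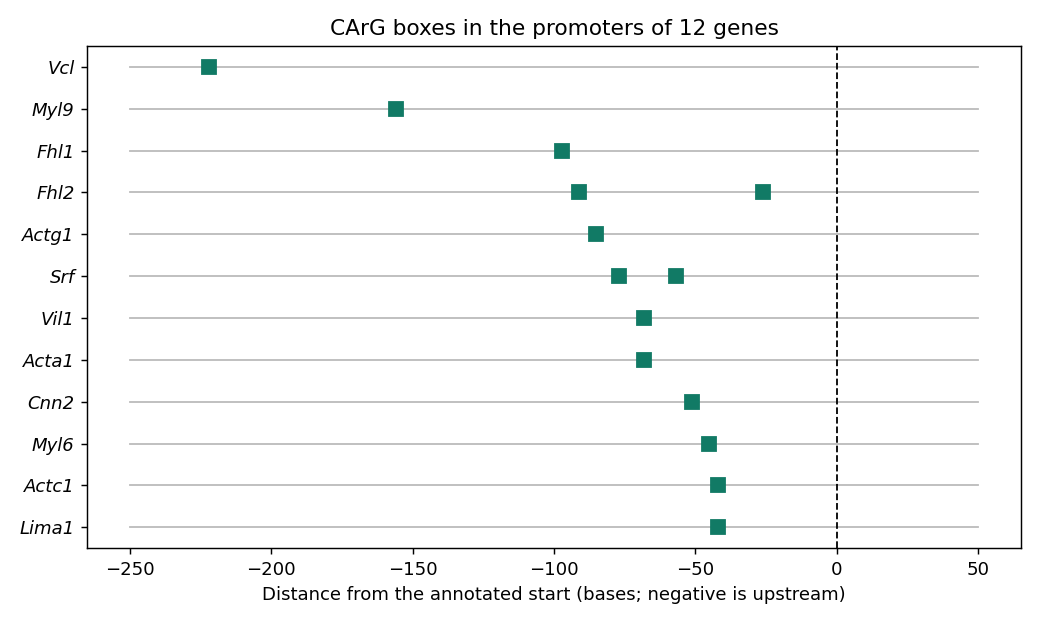
Distance in bases from the annotated start (x axis, negative is upstream) of the middle of each CArG box in the promoters of 12 genes (rows); grey lines span the stretch searched. Boxes sit between -222 for Vcl and -26 for the second promoter of Fhl2, and Srf has a pair at -77 and -57.

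Srf (ENSMUSG00000015605, chr17:46548329-46556175, minus strand), the regulator that gives the list its name, was higher in BMP-inhibited cells. It had 92.9, 82.7 and 89.9 CPM in BMP-inhibited libraries, against 44.8, 42.6 and 46.3 CPM in control libraries. Every BMP-inhibited library lay above every control, and replicate 2 was the lowest of its group. The log2 fold change was 0.99 (SE 0.06). The 250 bases before its RefSeq start, chr17:46556163-46556412 on the minus strand, carry both of its CArG boxes (capitals).
Srf: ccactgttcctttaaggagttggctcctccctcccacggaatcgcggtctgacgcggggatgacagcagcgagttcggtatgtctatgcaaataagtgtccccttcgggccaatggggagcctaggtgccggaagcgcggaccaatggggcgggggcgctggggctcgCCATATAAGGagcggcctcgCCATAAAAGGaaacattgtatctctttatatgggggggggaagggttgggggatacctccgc

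Among the actins, both cytoplasmic genes were higher in BMP-inhibited cells, and the muscle genes, at or near 0 counts in controls, were counted more often in BMP-inhibited cells. Actb, the beta-actin of all non-muscle cells and the most abundant transcript of the list, had 2425, 2399 and 2692 CPM in BMP-inhibited libraries, against 1697, 1679 and 1769 CPM in control libraries. Actg1, the cytoplasmic gamma-actin, had 695, 655 and 835 CPM in BMP-inhibited libraries, against 349.7, 339 and 371 CPM in control libraries. The groups were separate for both genes, and BMP-inhibited replicate 3 was the highest library for both. The log2 fold change was 0.55 (SE 0.05) for Actb and 1.04 (SE 0.07) for Actg1. Measured per kilobase of merged exons, Actg1 therefore made up 22.6% ± 1.14 of the 2 cytoplasmic actins in BMP-inhibited cells and 17.2% ± 0.284 in controls (SD, n = 3 each), with no overlap.

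Acta2 (ENSMUSG00000035783, chr19:34241090-34255590, minus strand), the smooth muscle alpha-actin, was absent from the control counts. It had 76, 55 and 95 counts in BMP-inhibited libraries, or 2.45, 1.77 and 2.89 CPM, against 0, 0 and 0 counts in control libraries. With a floor of 3 counts over the control group, its level was at least 82.2-fold higher in BMP-inhibited cells. Acta1, the skeletal muscle alpha-actin, had 19, 6 and 21 counts in BMP-inhibited libraries, against 2, 3 and 1 counts in control libraries. Its groups did not overlap, and BMP-inhibited replicate 2 lay well below the other replicates of its group.
Actg2, the smooth muscle gamma-actin, had 4, 7 and 9 counts in BMP-inhibited libraries, against 1, 1 and 4 counts in control libraries, so that the groups met at 4 counts. In CPM its lowest BMP-inhibited library, 0.129, stood just above its highest control library, 0.121. Actc1, the cardiac alpha-actin, had 2, 1 and 2 counts in BMP-inhibited libraries, against 0, 1 and 0 counts in control libraries. The ratio for Actc1 was 5.45 with a 95% counting interval of 0.61 to 258, so no difference was detectable at this depth.

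The 4 muscle actins summed to 3.26, 2.22 and 3.87 CPM in BMP-inhibited libraries, against 0.0878, 0.138 and 0.151 CPM in control libraries. That is 24.8 times the control mean, while the cytoplasmic pair stood at 3234 ± 257 CPM in BMP-inhibited and 2068 ± 64.0 CPM in control libraries (SD, n = 3 each), a ratio of 1.56. Muscle actins stayed a trace of all actin counts in either group, at 0.104%, 0.0725% and 0.110% in BMP-inhibited libraries and 0.00429%, 0.00684% and 0.00705% in control libraries.

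The actin genes are alike enough in sequence that their counts need care. Over the coding sequence, GENCODE transcripts of the 6 genes shared 81.2% to 88.7% of bases pair by pair, with Actb and Actg1 the closest. The first 30 coding bases of each gene are shown as an example of how the 6 sequences differ, on the coding strand with capitals for bases that differ from Actb at the same position, counted without gaps from the start codon.
Acta1: atgTGCgacgaAGAcgAGAcCACCgCTCtT
Acta2: atgTGtgaAgaGGAAgACAGCACAgCcCtG
Actc1: atgTGtgacgaCGAGgAGAcCACCgCTTtG
Actg2: atgTGtgaAgaAGAGAcCAcCGCCCtTgtG
Actg1: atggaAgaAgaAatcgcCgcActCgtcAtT
Actb: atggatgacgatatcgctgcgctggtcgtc
In this stretch the muscle actins differed from Actb at 17 or 18 bases and Actg1 at 8, counts that include any shift between coding sequences of unequal length. The longest run of identical coding bases was 77 between Acta1 and Actb, and 62 between Actb and Actg1. Reads that aligned to several places entered no gene's count. Near-identical copies elsewhere in the genome, of at least 90% identity over at least 50% of the coding sequence, were found for 10 of the 45 genes (Actb, Actg1, Myl6, Myl12a, Myl12b, Tpm3, Tpm4, Cnn3, Cfl1 and Ilk), whose counts are uncertain for that reason. Actg1 has 9 such copies, all annotated as pseudogenes. With the strand setting unknown, exons antisense to another gene make counts less certain too. Such stretches cover 538 of the 3037 exon bases of Cnn3, 468 of 2844 in Cfl1 and at most 363 bases against any 1 gene in Actn1, Actn4, Tln1, Zyx, Thbs1, Myl12a, Msn, Tpm4, Vil1 and Ezr, while longer ones in Tagln, Vcl and Ilk are given with their values. Actg1 and Pdlim7 overlap genes on their own strand by at most 83 bases each.

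Stretches before a pair of actin genes are printed because these genes differed so unequally between the groups: the 250 bases before Actg1, chr11:120348496-120348745 on the minus strand, with its CArG box in capitals, and those before Acta2, chr19:34255374-34255623 on the minus strand. The Acta2 stretch has no exact CArG box; its capitals mark 2 matches with 1 mismatch in the core, at -79 and -29.
Actg1: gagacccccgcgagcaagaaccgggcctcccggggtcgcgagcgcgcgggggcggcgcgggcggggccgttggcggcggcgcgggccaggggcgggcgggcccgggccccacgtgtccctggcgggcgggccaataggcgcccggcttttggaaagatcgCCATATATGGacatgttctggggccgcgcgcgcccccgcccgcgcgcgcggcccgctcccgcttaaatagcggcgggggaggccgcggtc
Acta2: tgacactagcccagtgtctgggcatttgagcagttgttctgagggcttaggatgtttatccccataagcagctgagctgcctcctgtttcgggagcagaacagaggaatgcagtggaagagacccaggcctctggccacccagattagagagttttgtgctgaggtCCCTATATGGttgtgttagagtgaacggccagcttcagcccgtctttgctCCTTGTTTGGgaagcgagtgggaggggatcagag

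**Figure D3:**
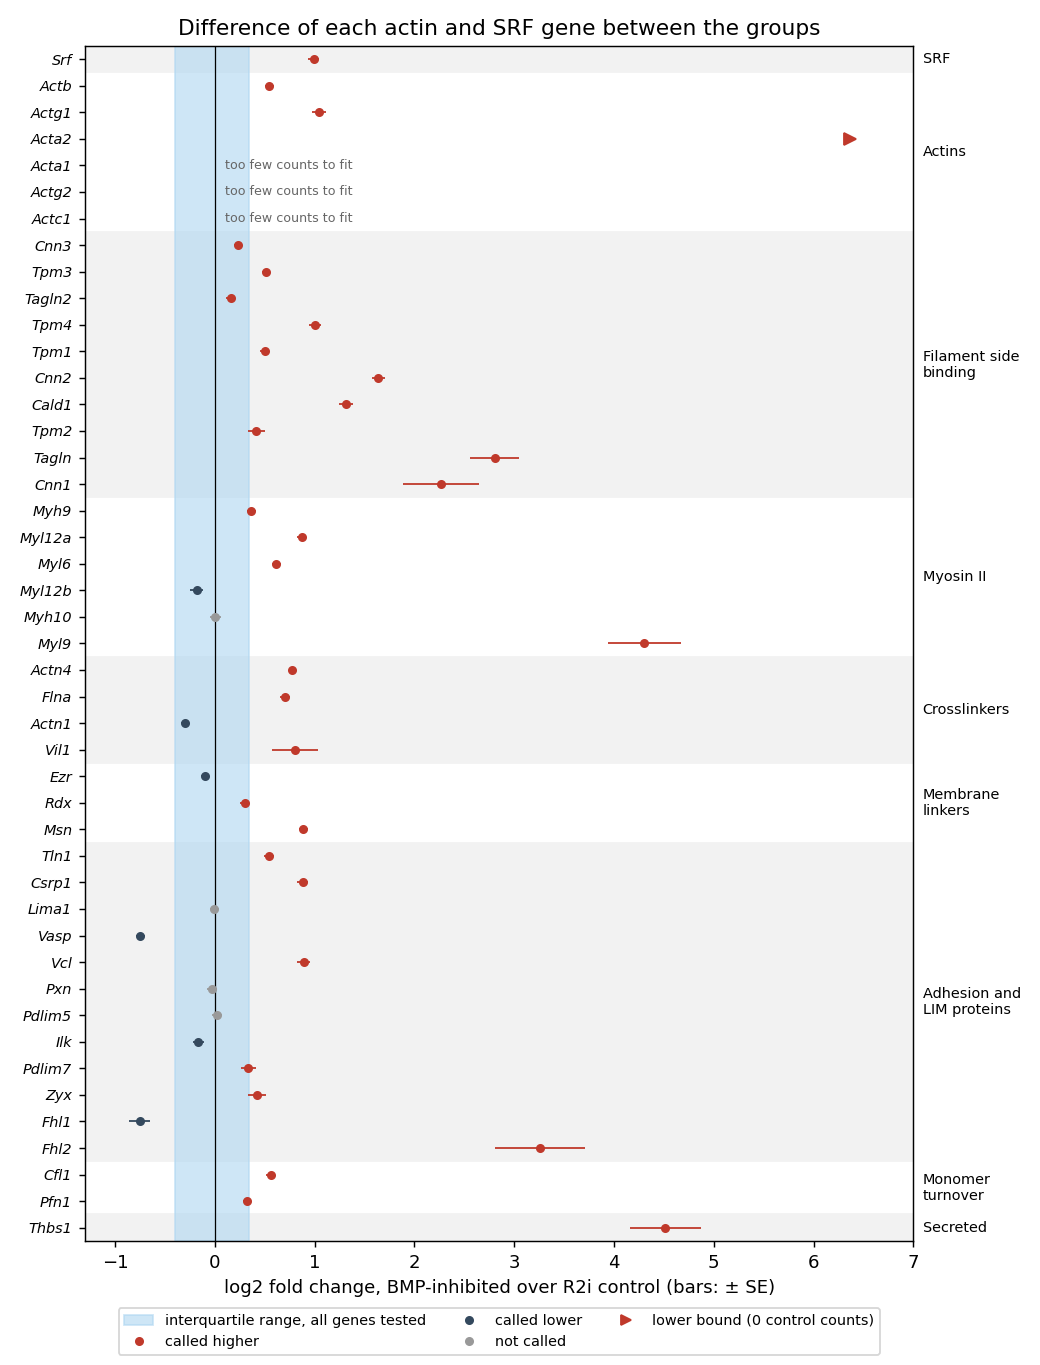
Log2 fold change of each gene, BMP-inhibited over R2i control (x axis; bars are ± 1 SE), with genes in rows by role and a blue band for the interquartile range of all genes tested. Acta2 is drawn at its lower bound, 3 actins had too few counts to be fitted, and 10 genes lie at 1 or beyond on the higher side.

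All 10 genes for proteins that lie along the actin filament were higher in BMP-inhibited cells with separate groups, and the size of the difference ran from slight to steep. Their median log2 fold change was 0.76. Over all genes tested, 32.5% were called higher and 68.6% had separate groups. Tropomyosins stabilise filaments and gate the access of myosin, calponins and transgelins bind along the filament, and caldesmon restrains myosin on it.

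Tagln (ENSMUSG00000032085, chr9:45929619-45936058, minus strand), the smooth muscle transgelin, had 3.00, 3.47 and 3.50 CPM in BMP-inhibited libraries, against 0.380, 0.552 and 0.482 CPM in control libraries. Its log2 fold change was 2.80 (SE 0.24). The lowest BMP-inhibited library stood far above the highest control, although 1241 of its 1988 exon bases lie antisense to Gm48529, and with the strand setting unknown its counts are uncertain. Its broadly expressed relative Tagln2 stood at 199 ± 8.10 CPM in BMP-inhibited and 178 ± 4.93 CPM in control libraries (SD, n = 3 each), a log2 fold change of 0.16. Without control replicate 3, or with scaling by library totals, Tagln2 was no longer called.

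Cnn2, a calponin of non-muscle cells, had 70.1, 65.7 and 77.0 CPM in BMP-inhibited libraries, against 22.8, 22.0 and 23.6 CPM in control libraries, a log2 fold change of 1.64 (SE 0.07). Cnn1, the smooth muscle calponin, had 1.42, 0.931 and 1.19 CPM in BMP-inhibited libraries, against 0.176, 0.193 and 0.362 CPM in control libraries, a log2 fold change of 2.27 (SE 0.38). Both pairs of groups were separate, and BMP-inhibited replicate 2 was lowest for both genes. The most abundant calponin, Cnn3, differed least, at 529.97 ± 19.7 CPM in BMP-inhibited and 449.6 ± 6.54 CPM in control libraries (SD, n = 3 each), a log2 fold change of 0.24. Per kilobase, Cnn2 thus took 14.2% ± 1.01 of the calponins in BMP-inhibited cells and 5.89% ± 0.130 in controls (SD, n = 3 each).

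Cald1, caldesmon, had 67.1, 59.2 and 58.4 CPM in BMP-inhibited libraries, against 22.9, 24.8 and 26.7 CPM in control libraries, a log2 fold change of 1.31 (SE 0.07). Tpm4, a tropomyosin of non-muscle filaments, had 125 CPM, 113 CPM and 132 CPM in BMP-inhibited libraries, against 63.7, 61.2 and 59.6 CPM in control libraries, a log2 fold change of 1.00 (SE 0.06). Neither gene's groups overlapped. The other tropomyosins differed less, with log2 fold changes of 0.50 for Tpm1, 0.42 for Tpm2 and 0.51 for Tpm3. Per kilobase, Tpm4 held 34.3% ± 1.56 of the tropomyosins in BMP-inhibited cells and 26.9% ± 0.692 in controls, while Tpm3 held 48.7% ± 1.41 in BMP-inhibited cells and 53.8% ± 1.06 in controls (SD, n = 3 each). Tropomyosin genes make many isoforms by splicing, and the gene counts do not resolve them.

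Of the 6 chains of non-muscle and smooth muscle myosin II, the motor that pulls on actin filaments, 4 were higher, 1 was lower and 1 was not called. Among all genes tested, 32.5% were called higher and 31.7% lower. The median log2 fold change of the 6 chains was 0.49. Myl9 (ENSMUSG00000067818, chr2:156775420-156781658, plus strand), a regulatory light chain best known from smooth muscle, had 3.52, 2.47 and 3.35 CPM in BMP-inhibited libraries, against 0.117, 0.276 and 0.0603 CPM in control libraries. In counts these are 296 over the BMP-inhibited group and 16 over the controls. The groups lay far apart, with a log2 fold change of 4.30 (SE 0.37). The 250 bases before its RefSeq start, chr2:156775214-156775463 on the plus strand, are shown with the CArG box in capitals.
Myl9: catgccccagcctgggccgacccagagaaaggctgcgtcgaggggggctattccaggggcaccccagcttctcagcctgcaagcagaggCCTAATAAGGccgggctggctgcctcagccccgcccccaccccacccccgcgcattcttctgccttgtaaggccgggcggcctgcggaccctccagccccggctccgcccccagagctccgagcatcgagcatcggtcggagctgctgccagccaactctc

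Its 2 broadly expressed relatives went in opposite directions. Myl12a had 296, 293 and 314 CPM in BMP-inhibited libraries, against 163, 169 and 162 CPM in control libraries, a log2 fold change of 0.87 (SE 0.04). Myl12b had 115, 145 and 127 CPM in BMP-inhibited libraries, against 141, 151 and 146 CPM in control libraries, a log2 fold change of -0.18 (SE 0.07). The groups were separate for Myl12a and overlapped for Myl12b, which lost its call when BMP-inhibited replicate 1 or 3 or control replicate 2 or 3 was left out. Per kilobase, Myl12a took 64.6% ± 2.67 of the 3 regulatory light chains in BMP-inhibited cells and 48.1% ± 0.572 in controls (SD, n = 3 each). The coding sequences of Myl12a and Myl12b are 96.5% identical, with 105 identical bases in a row. The 2 genes share no exon bases with each other. A further gene ID that carries the name Myl12b overlaps exons of Myl12a by 462 bases and of Myl12b by 739 bases, on the same strand. The split between Myl12a and Myl12b is therefore uncertain.

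Myl6, the essential light chain, was at 272 ± 11.8 CPM in BMP-inhibited and 178 ± 5.53 CPM in control libraries (SD, n = 3 each), a log2 fold change of 0.62. Myh9, the heavy chain of non-muscle myosin IIA, was at 495 ± 29.3 CPM in BMP-inhibited and 384 ± 15.5 CPM in control libraries, a log2 fold change of 0.37. Its IIB counterpart Myh10 was at 92.4 ± 6.36 CPM in BMP-inhibited and 91.96 ± 1.64 CPM in control libraries, a log2 fold change of 0.01 that was not called and took either sign across the alternatives. Myh9 accordingly made up 81.3% ± 0.174 of the pair per kilobase in BMP-inhibited cells and 77.1% ± 0.429 in controls.

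**Figure D4:**
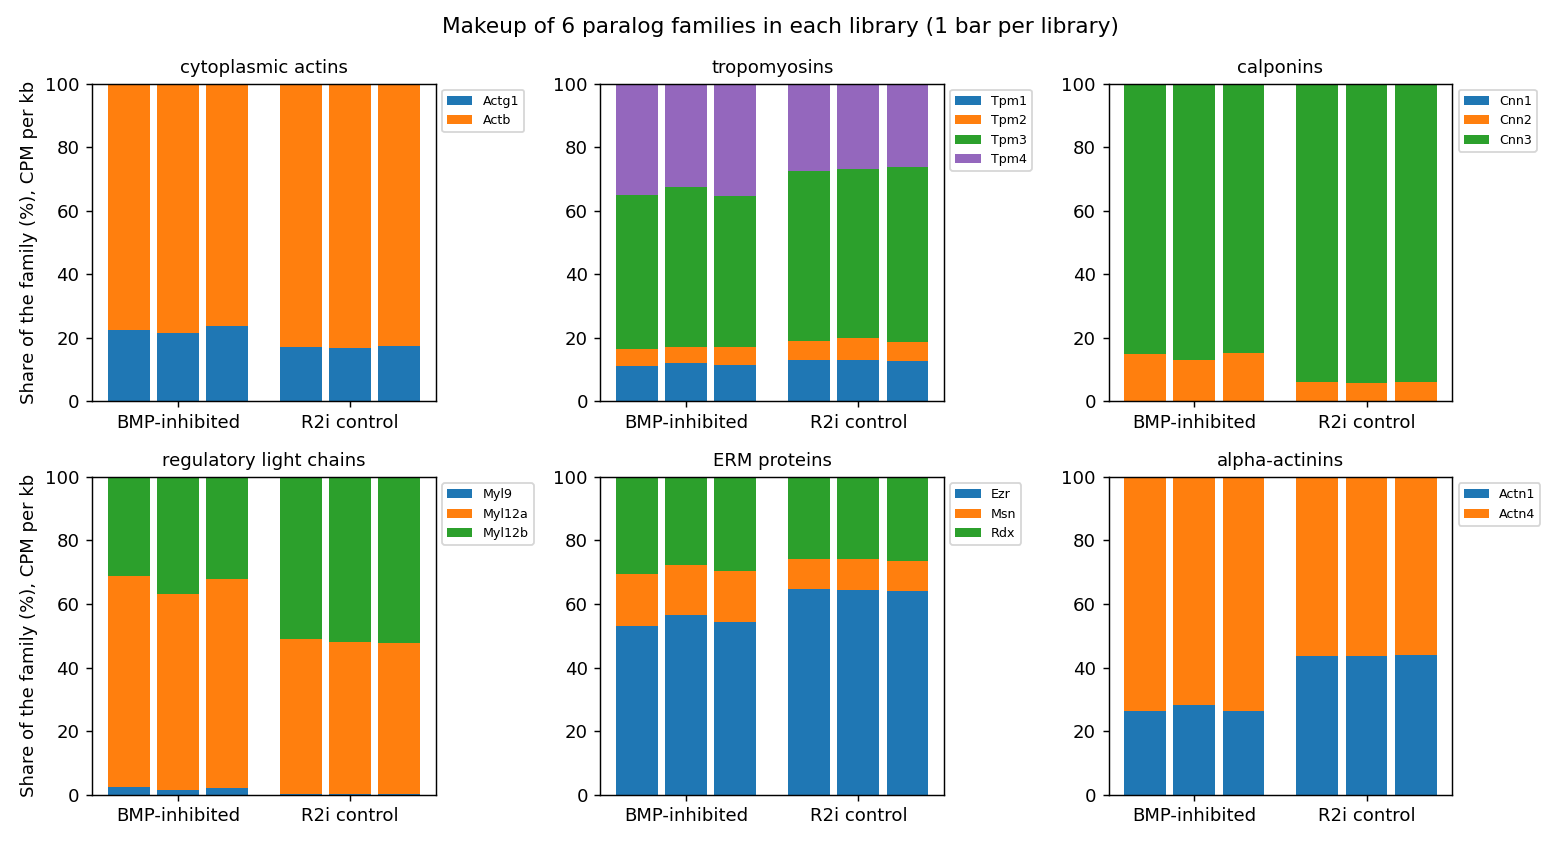
Share of each gene in 6 families of related genes (y axis, percent of the family's CPM per kilobase of merged exons), 1 bar per library, 3 BMP-inhibited libraries left of 3 R2i control libraries. Actg1, Tpm4, Cnn2, Myl12a, Msn and Actn4 take larger shares in all 3 BMP-inhibited libraries than in any control library.

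Crosslinkers tie filaments into networks and bundles, and 3 of the 4 on the list were higher, beside 32.5% of all genes tested. Actn4, a non-muscle alpha-actinin, had 974, 945 and 984 CPM in BMP-inhibited libraries, against 557, 568 and 567 CPM in control libraries, a log2 fold change of 0.78 (SE 0.04). Flna, filamin A, had 936, 791 and 859 CPM in BMP-inhibited libraries, against 521, 528 and 535 CPM in control libraries, a log2 fold change of 0.71 (SE 0.05). Both had separate groups, with BMP-inhibited replicate 2 the lowest of its group. The second alpha-actinin, Actn1, went the other way, at 322 ± 10.3 CPM in BMP-inhibited and 396 ± 5.47 CPM in control libraries (SD, n = 3 each), a log2 fold change of -0.30. Actn4 therefore held 73.1% ± 1.04 of the pair per kilobase in BMP-inhibited cells and 56.3% ± 0.176 in controls. Vil1, villin, which bundles filaments in epithelial microvilli, had a low level of 2.13 ± 0.239 CPM in BMP-inhibited and 1.22 ± 0.175 CPM in control libraries, a log2 fold change of 0.80 (SE 0.23).

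The ERM proteins ezrin, moesin and radixin fasten filaments to the plasma membrane. Msn was at 189.8 ± 6.45 CPM in BMP-inhibited and 103 ± 0.195 CPM in control libraries (SD, n = 3 each), a log2 fold change of 0.89, and Rdx had a log2 fold change of 0.30. Ezr, the most abundant of them per kilobase, was slightly lower, at 336 ± 9.02 CPM in BMP-inhibited and 361 ± 1.84 CPM in control libraries, a log2 fold change of -0.10. Ezr lost its call when any library other than BMP-inhibited replicate 2 was left out. Per kilobase, Msn took 16.1% ± 0.415 of the 3 in BMP-inhibited cells and 9.52% ± 0.0992 in controls, and Ezr took 54.7% ± 1.77 in BMP-inhibited cells and 64.4% ± 0.400 in controls.

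The 12 adhesion and LIM-domain genes were the most mixed role of the list, with 6 called higher, 3 lower and 3 not called. Their median log2 fold change was 0.18. The shares of all genes tested were 32.5% higher and 31.7% lower. Fhl2, a LIM-only cofactor that binds SRF, had 1.00, 0.835 and 1.04 CPM in BMP-inhibited libraries, against 0.0585, 0.0828 and 0.151 CPM in control libraries. These rest on 91 counts over the BMP-inhibited group and 10 over the controls, with separate groups and a log2 fold change of 3.26 (SE 0.45). Its relative Fhl1, known from skeletal muscle, was lower, at 7.79 ± 0.734 CPM in BMP-inhibited and 13.1 ± 0.598 CPM in control libraries (SD, n = 3 each), a log2 fold change of -0.75. Both Fhl2 promoters and 1 of the 2 Fhl1 promoters hold a CArG box.

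Vcl, vinculin, a mechanical link of adhesions to actin, was at 141 ± 15.97 CPM in BMP-inhibited and 76.3 ± 0.965 CPM in control libraries (SD, n = 3 each), a log2 fold change of 0.89; 2090 of its 8191 exon bases lie antisense to Ap3m1. Csrp1, a LIM-only filament protein, had a log2 fold change of 0.88, and Tln1, talin, which couples integrins to actin, one of 0.54. Zyx, zyxin, a protein of adhesions under tension, and Pdlim7, a PDZ and LIM adaptor, had log2 fold changes of 0.42 and 0.34. On the lower side Vasp, which speeds filament growth at adhesions, was at 148 ± 6.58 CPM in BMP-inhibited and 248 ± 3.67 CPM in control libraries, a log2 fold change of -0.74. Ilk, an integrin-linked pseudokinase, had a log2 fold change of -0.16; 2106 of its 2744 exon bases lie antisense to Taf10, and it lost its call without control replicate 1. Lima1, Pdlim5 and Pxn (paxillin) were not called, with log2 fold changes of -0.0031, 0.02 and -0.03.

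Cfl1, cofilin, which severs filaments, had 815, 862 and 933 CPM in BMP-inhibited libraries, against 594, 567 and 610 CPM in control libraries, a log2 fold change of 0.56 (SE 0.05). Pfn1, profilin, which feeds monomers to growing filaments, was at 571 ± 25.7 CPM in BMP-inhibited and 455 ± 3.68 CPM in control libraries (SD, n = 3 each), a log2 fold change of 0.33. Both genes had separate groups.

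Thbs1 (ENSMUSG00000040152, chr2:118111876-118127133, plus strand) encodes thrombospondin 1, a secreted glycoprotein and a known SRF target. It had 10.4, 4.14 and 8.28 CPM in BMP-inhibited libraries, against 0.293, 0.276 and 0.422 CPM in control libraries, or 722 counts over the BMP-inhibited and 34 over the control libraries. All BMP-inhibited libraries lay far above all controls, though replicate 2 was well below the other replicates of its group. The log2 fold change of 4.52 (SE 0.35) was the largest of any gene on the list with control counts that passed the filter, and it was 4.81 without BMP-inhibited replicate 2.

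The largest log2 fold changes were among listed genes of low level. Of the 10 genes with a mean under 10 CPM over all 6 libraries, a boundary set after the values were seen, 7 were tested and all 7 were called higher, with a median log2 fold change of 3.26. Of the 35 genes at 10 CPM or more, 25 were called higher, 6 lower and 4 not, with a median of 0.42 and a highest value of 1.64 (Cnn2). Fhl1, called lower at -0.75, lay just above the boundary, at 7.79 CPM in BMP-inhibited and 13.1 CPM in control libraries on average. Of the 7 tested genes under 10 CPM, Acta2, Myl9, Fhl2, Cnn1 and Thbs1 passed the count filter only through the BMP-inhibited libraries. These counts stand beside 32.5% of all genes tested called higher and 31.7% called lower. No test is attached to this division, and nothing is read from its counts. In CPM per kilobase of merged exons the order at the top changed little. Actb came first in both groups, at 935 in BMP-inhibited and 640 in control cells, and Cfl1 followed at 306 in BMP-inhibited and 208 in control cells. Actg1 was the third in BMP-inhibited cells, at 274, and the fifth in controls, at 133. Pfn1 stood at 238 in BMP-inhibited and 189 in control cells, and Cnn3 at 175 in BMP-inhibited and 148 in control cells.

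Replicates of the BMP-inhibited group were less alike than controls. The median coefficient of variation of the 42 genes was 6.72% in BMP-inhibited and 3.21% in control libraries, beside 8.39% in BMP-inhibited and 4.70% in control libraries over all genes tested. BMP-inhibited replicate 2 was the lowest of its group for 25 of the 42 genes (59.5%) and the highest for 8 (19.0%), beside 36.7% and 35.2% of all genes tested. Without it, 33 of the listed genes were called higher and 6 lower.

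Beyond the 45 genes, 187 others of the actin and SRF system were looked up in 10 lists, of which 175 were tested; 84 were called higher (48.0%) and 37 lower (21.1%), against 32.5% and 31.7% of all genes tested. Their median log2 fold change was 0.16, and their groups did not overlap for 121 (69.1%, against 68.6% of all genes). Adjusted p-values below are from edgeR's quasi-likelihood test with Benjamini-Hochberg adjustment over all genes tested.

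In the list of SRF's cofactors and related factors 3 of 8 tested rose (37.5%) and 2 fell (25%), against 32.5% and 31.7% of all genes tested. Their median was 0.12. The ternary complex factor Elk4 rose by 0.59 on the log2 scale (SE 0.10, adjusted p = 9.69e-05) and Elk3 by 0.25 (SE 0.09, adjusted p = 0.018), as did Stk38l, a kinase of the NDR family, by 0.23 (SE 0.06, adjusted p = 0.00393). The actin-binding cofactor Mrtfa was at 35.3 ± 4.61 CPM in BMP-inhibited and 31.3 ± 1.37 CPM in control libraries (SD, n = 3 each; log2 fold change 0.17, adjusted p = 0.0779), and passed the test, at 0.26 and an adjusted p of 0.00427, without BMP-inhibited replicate 2. Mrtfb was at 33.6 ± 4.06 CPM in BMP-inhibited and 32.2 ± 0.969 CPM in control libraries (log2 fold change 0.06, adjusted p = 0.518). Elk3 was not called with library totals or without control replicate 1 or 2, and Elk4, Elk3, Mrtfa and Mrtfb overlap other genes' exons.

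Of 8 immediate early targets of SRF and ternary complex factors that were tested, 7 rose (87.5%) and 0 fell (median 0.85). The shares of all genes tested were 32.5% and 31.7%. Of the 7, Fosb passed the count filter only through the BMP-inhibited libraries. Egr2, Egr3 and Egr4 were too low to be tested. They had 24, 3 and 39 counts in BMP-inhibited and 6, 2 and 24 counts in control libraries, with overlapping groups. Fos, a subunit of AP-1, rose to 9.87 ± 0.0664 CPM in BMP-inhibited cells, against 3.69 ± 0.146 CPM in controls (SD, n = 3 each; log2 fold change 1.42, SE 0.12, adjusted p = 3.94e-08). Dusp5, an ERK phosphatase, rose by 1.24 (SE 0.11, adjusted p = 8.38e-08) and Junb, another AP-1 subunit, by 0.65 (SE 0.10, adjusted p = 2.58e-05).

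A list of 21 further contractile and MRTF genes that were tested was divided, with 6 higher (28.6%) and 5 lower (23.8%). Both shares were below the 32.5% and 31.7% of all genes tested. The median was 0.12 and the lowest log2 fold change was -1.66. The matricellular proteins Ccn1 and Ccn2 rose by 2.03 (SE 0.06, adjusted p = 5.1e-13) and 1.72 (SE 0.06, adjusted p = 1.92e-12); both are also known targets of YAP and TEAD. Pdlim3, a muscle PDZ and LIM protein, had 96 counts in BMP-inhibited and 2 in control libraries, a ratio of 52.4 with a 95% counting interval of 14.1 to 439.

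Proteins that bind monomers, sever or cap filaments had 15 of 24 higher (62.5%) and 5 lower (20.8%), with a median of 0.39. The shares of all genes tested were 32.5% and 31.7%. Dstn, destrin, rose to 445 ± 31.8 CPM in BMP-inhibited cells, against 171 ± 2.75 CPM in controls (SD, n = 3 each; log2 fold change 1.38, SE 0.05, adjusted p = 5.61e-12). Wdr1, which helps cofilin disassemble filaments, rose by 1.396 (SE 0.06, adjusted p = 6.15e-11), and Gsn, gelsolin, by 1.35 (SE 0.08, adjusted p = 1.33e-09).

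Further crosslinkers had 12 of 22 higher (54.5%) and 6 lower (27.3%), with a median of 0.16. Iqgap1 rose by 0.72 (SE 0.05, adjusted p = 7.99e-09) and drebrin (Dbn1) was at -1.16 (SE 0.09, adjusted p = 3.68e-08). Further focal adhesion genes had 12 of 21 higher (57.1%) and 5 lower (23.8%), with a median of 0.34. Both lists stand beside 32.5% higher and 31.7% lower over all genes tested. Tns3 and Itgb1, a tensin and the beta1 integrin, rose by 0.76 (SE 0.05, adjusted p = 2.34e-09) and 0.55 (SE 0.04, adjusted p = 1.83e-08), and Enah, a relative of Vasp, was at -0.50 (SE 0.04, adjusted p = 4.75e-08).

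The Arp2/3 and WAVE list, of filament nucleators and their activators, had 9 of 21 higher (42.9%) and 4 lower (19.0%), with a median of 0.12; Arpc4 and Arpc5, subunits of Arp2/3, rose by 0.59 (SE 0.05, adjusted p = 5.56e-08) and 0.61 (SE 0.05, adjusted p = 6.08e-08) and Wasf3 was at -0.73 (SE 0.06, adjusted p = 2.04e-08). Formins, which also nucleate filaments, had 4 of 13 higher (30.8%) and 4 lower (30.8%), near the 32.5% and 31.7% of all genes tested, with Fmn2 rising by 0.71 (SE 0.09, adjusted p = 3.3e-06) and Diaph2 and Fmnl1 at -0.92 (SE 0.07, adjusted p = 2.46e-08) and -1.002 (SE 0.11, adjusted p = 1.15e-06). The median of the formins was 0.01.

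Other myosins and their regulators had 5 of 16 higher (31.2%) and 4 lower (25%), against 32.5% and 31.7% of all genes tested, with a median of 0.05. Among the higher ones were Myo1c at 1.00 (SE 0.05, adjusted p = 6.86e-11), Myo1e at 0.45 (SE 0.06, adjusted p = 9.61e-06) and the kinase Rock2 at 0.43 (SE 0.07, adjusted p = 6.45e-05). Exons of Junb, Dusp5, Ccn2, Arpc4, Fmnl1, Wdr1 and Iqgap1 overlap another gene, which leaves their counts less certain.

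**Figure D5:**
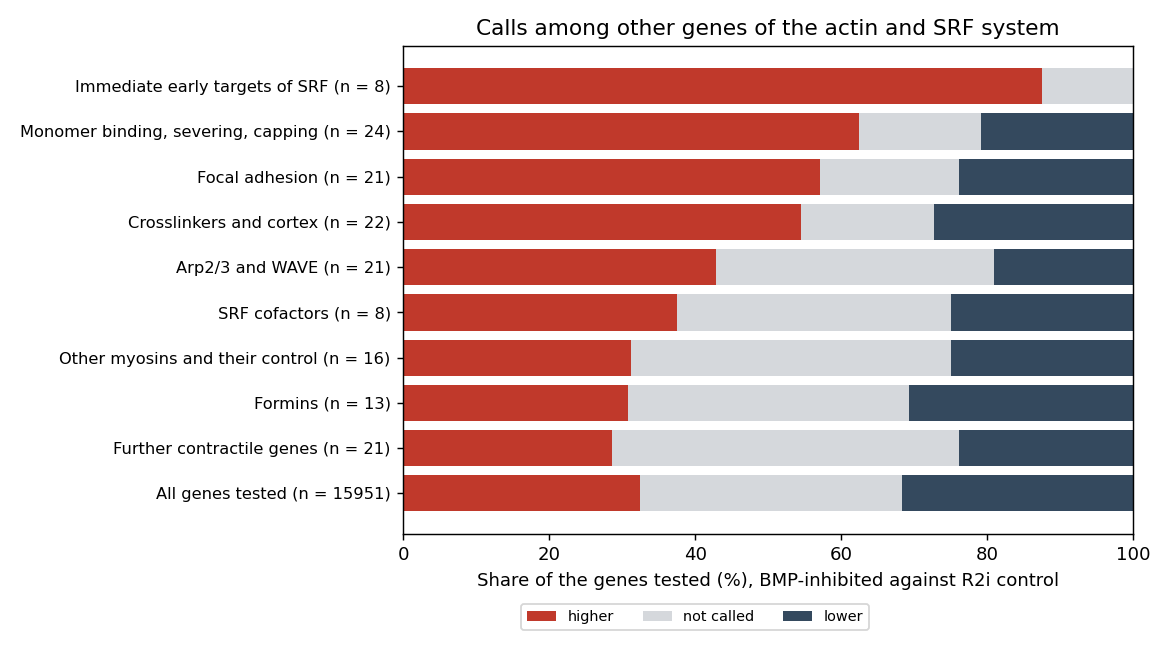
Share of the tested genes of 9 further lists and of all 15951 genes tested (rows, with the number tested) that were called higher, not called or called lower in BMP-inhibited against R2i control cells (x axis, percent). Immediate early targets of SRF have 7 of 8 higher and 0 lower, and formins 4 of 13 in either direction.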

How the data were processed

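The authors deposited raw counts of reads per gene, 1 table for each of 6 libraries; per the labels' protocols, these were poly(A)-selected TruSeq Stranded libraries sequenced on an Illumina HiSeq. Tools listed in the submitters' processing notes, with no role given, are STAR 2.6.1, HTSeq 0.9.1, cutadapt 1.4.2, CASAVA 1.8.2 and DESeq2, with the build GRCm38.p6. Neither the annotation release nor the strand setting is given in the sources used here. If strand was ignored, reads of antisense genes are mixed. Such overlaps are therefore named for the listed genes and for the genes named from the further lists. For the cell type markers only some overlaps are named, so a marker without mention is not shown to be free of them. Besides 53465 genes, a table held 5 rows naming none, with 25.6% to 26.4% of the reads, which were set aside; reads with several alignments, 16.3% to 17.6%, were among them.

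Symbols and exons came from GENCODE M21 on the same build (53360 identifiers matched, 105 did not). The groups were compared with edgeR 4.0.16: filterByExpr with a minimum count of 10 and a total of 15, TMM factors, the quasi-likelihood F test, two-sided, and Benjamini-Hochberg adjustment over all 15951 genes with a threshold of 0.05. SE is that of the log2 fold change. A fold against 0 control counts is a bound that puts 3 counts in their place, and one against 1 to 3 counts has an exact 95% binomial interval. Both cover counting error only. The test was checked on simulated counts in which few genes differed. That check does not cover a comparison in which 64.2% of the genes tested were called.

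The 45 genes, the 10 further lists and the cell type markers were chosen with earlier results of these data known. All 45 are named, with every library's value for Srf, the actins, genes with a log2 fold change of at least 1 and the 5 most abundant; from each further list up to 3 called genes with the smallest p are named, plus Mrtfa and Mrtfb; 1 of the lists and some genes are left unreported. Promoters came from RefSeq (GRCm38.p6). A planned comparison of actin proteins was replaced by one of GENCODE coding sequences, aligned with Biopython 1.88; copies were sought with BLAST 2.17.0. Alternatives used DESeq2 1.42.0, limma-voom (limma 3.58.1), other scalings and filters, a replicate block and leaving out each library.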

Additional observations from a re-analysis of the deposited data

How the results depend on the processing

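Leaving out each library in turn gave 32 to 33 of the listed genes higher and 4 to 6 lower, and the other settings gave 29 to 33 higher and 6 lower. Over all genes, leaving out a library gave 4670 to 5436 higher and 4597 to 5244 lower, and the other settings 4364 to 5606 higher and 4503 to 5692 lower. For the 187 further genes the counts were 78 to 91 higher and 31 to 40 lower without 1 library, and 76 to 87 higher and 34 to 46 lower with the other settings. A paired fit with the replicate number as a block gave 32 of the listed genes higher and 6 lower, 84 and 37 of the further genes, and 5149 and 5061 of all genes. Same-numbered libraries did not deviate together (correlations of -0.044, 0.008 and 0.029). The labels state no pairing, and these values cannot tell whether the cultures were paired. The median log2 fold change of all genes was -0.0031 with TMM, 0.0014 with RLE factors or DESeq2, -0.0192 with upper-quartile factors and -0.0621 with library totals. Sign changes touched uncalled genes only, and their cause was not tested: Myh10 was at -0.009 with upper-quartile factors, -0.052 with library totals and -0.049 to 0.04 without 1 library. Lima1 was at 0.001 with DESeq2 or RLE factors and -0.035 to 0.032 without 1 library, Pdlim5 at -0.038 with library totals and -0.011 to 0.044 without 1 library, and Mrtfb at -0.033 to 0.14, lowest without BMP-inhibited replicate 1. Of 585 values for the 42 tested genes, 560 kept their direction and side of the threshold and 12 lost a call (Tagln2, Myl12b, Ezr and Ilk). With 1 mismatch allowed in the CArG core, 9.98% of all promoters matched, against 1.63% without. Depth limits the muscle actins: Actc1, Actg2 and Acta1 rest on 5, 20 and 46 counts in BMP-inhibited and 1, 6 and 6 counts in control libraries.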
